A study of Mus musculus with 16 samples.

Results

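Antigen presentation by the major histocompatibility complex (MHC) was followed in the mouse hippocampus through 10 genes chosen by name, H2-K1, H2-D1, H2-Q4, H2-T23, B2m, Tap1, Tap2, Tapbp, Cd74 and H2-Aa. All 10 were among the 55335 genes of the count table, and all 10 passed the filter on low counts, which kept 16475 genes. H2-K1 and H2-D1 encode the classical class I heavy chains, and H2-Q4 and H2-T23 encode nonclassical class I heavy chains. Class I heavy chains reach the cell surface with β2-microglobulin (B2m) and a peptide of the cell's own proteins, which the Tap1/Tap2 transporter brings into the endoplasmic reticulum and tapasin (Tapbp) helps to load. Class II molecules, such as the one built on the alpha chain encoded by H2-Aa, present peptides from endosomes and are escorted there by the invariant chain Cd74. In the brain, microglia and infiltrating or border-resident immune cells are the usual sources of class II, and interferons raise both classes through transactivators that include Nlrc5 for class I and Ciita for class II.

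The hippocampi came from 16 female mice of 10 months, 4 in each group. WT-D and WT-S were wild-type strain controls (C57BL/6J x 129S1), and 3xTg-D and 3xTg-S were homozygous 3xTg mice, whose human APPSwe and tauP301L transgenes are driven by a neuron-specific Thy1.2 element. The WT mice were a separate line of the background strain, so the genotype comparison also holds any other difference between these lines. All mice carried an intracerebroventricular cannula and pump for 28 days: WT-D and 3xTg-D received vehicle (0.8% DMSO), and WT-S and 3xTg-S received a stearoyl-CoA desaturase inhibitor at 80 µM in the same vehicle. The treatment labels give the inhibitor by its Cayman number, read here as CAY10566, whereas a protocol text given for all samples names a product of another supplier. The whole tissue was sequenced in bulk, so fewer or more cells of a type and less or more RNA per cell cannot be told apart.

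Each hippocampus gave 15413385 to 23590149 reads on genes. The defining neuronal markers were high in every mouse, with a summed level of 4623 to 5957 CPM (a gene's reads scaled to a common size of library) over 7 hippocampal neuron genes. A choroid plexus list of 9 genes was far higher in WT-D 4 (743 CPM) and WT-S 1 (298 CPM) than in the other mice, and neither of these mice was among those that stood apart in the 10 members. Within each group the libraries differed by more than sampling noise.

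Where the 10 genes lie and what stands before them is shown first, as a description. A link of place or sequence to the levels was not tested. B2m is on chr2:122147686-122153083 (plus strand), and Cd74 also lies outside the MHC. The other 8 are on chromosome 17 (GRCm38), within the MHC: Tapbp at chr17:33915899-33929292, H2-K1 at chr17:33996017-34000347 on the minus strand, Tap1 at chr17:34187553-34197225, Tap2 at chr17:34203527-34216321, H2-Aa at chr17:34282744-34287823 on the minus strand, H2-D1 at chr17:35262730-35267499, H2-Q4 at chr17:35379617-35385290 and H2-T23 at chr17:36029773-36032855 on the minus strand. The 250 bases before the RefSeq transcription start (GRCm38.p6) were searched on both strands for 4 sets of letters: GGGGATT and CCC with any base between them (a κB-type site), AANNGAAA (of the interferon-stimulated response element type), TGACG (the core of an X2 or CRE box) and CCAAT. The sequences below show the windows of 2 class I heavy chains, of B2m and of the class II alpha chain, 5′ to 3′ on the gene's strand, with matches in capitals. They are H2-K1 (chr17:34000348-34000597, minus strand), H2-Q4 (chr17:35379367-35379616, plus strand), B2m (chr2:122147437-122147685, plus strand) and H2-Aa (chr17:34287824-34288073, minus strand).
H2-K1: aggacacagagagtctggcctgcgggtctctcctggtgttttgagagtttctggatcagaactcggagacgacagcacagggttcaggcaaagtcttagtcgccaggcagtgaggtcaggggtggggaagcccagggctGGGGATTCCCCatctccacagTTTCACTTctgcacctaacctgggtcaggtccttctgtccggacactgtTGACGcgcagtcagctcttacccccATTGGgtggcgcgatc
H2-Q4: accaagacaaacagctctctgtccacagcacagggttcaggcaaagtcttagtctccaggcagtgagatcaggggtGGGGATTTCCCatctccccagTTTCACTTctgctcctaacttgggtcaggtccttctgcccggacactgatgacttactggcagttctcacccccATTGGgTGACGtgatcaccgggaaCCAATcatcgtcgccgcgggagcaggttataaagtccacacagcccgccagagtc
B2m: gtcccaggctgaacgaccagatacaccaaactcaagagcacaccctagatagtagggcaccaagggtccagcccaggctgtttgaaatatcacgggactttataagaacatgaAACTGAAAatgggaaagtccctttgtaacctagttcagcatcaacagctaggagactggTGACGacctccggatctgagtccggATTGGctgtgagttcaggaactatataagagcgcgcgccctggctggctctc
H2-Aa: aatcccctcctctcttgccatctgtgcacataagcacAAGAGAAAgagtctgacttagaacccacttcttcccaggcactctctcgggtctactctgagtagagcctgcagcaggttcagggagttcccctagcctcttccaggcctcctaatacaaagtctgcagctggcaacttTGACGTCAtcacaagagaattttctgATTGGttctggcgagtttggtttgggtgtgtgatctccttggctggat

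Windows were searched for 8 of the 10 members. The κB-type letters were found before H2-K1, H2-D1 and H2-Q4 and in 24 of 32851 windows of all genes (0.0731%), a set in which a gene may have several entries. In each of these 3 genes a match to the interferon-type letters on the other strand followed the κB-type match within the window, starting at -90 in H2-K1, -150 in H2-D1 and -153 in H2-Q4 (counted back from the start site), against -111, -171 and -174 for the κB-type match. The interferon-type letters stood before 6 of the 8 members, against 21.3% of all windows. TGACG was before 6 members and 17.8% of all windows, and CCAAT before 8 members and 33.8% of all windows. Only the κB-type letters given above were searched, so a window without a match, such as that of B2m, may hold other forms. The printed windows of H2-K1 and H2-Q4 are alike around the match. The matches in the class I heavy chains are therefore not independent, and the share of all windows is no test of them. A match is a description of the letters, and the counts per mouse do not show which factor was bound.

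Per length of merged exon, the members spanned a wide range of levels. B2m was the highest, with a median over the 16 mice of 95.5 CPM per kb of exon, and H2-D1 (9.26 CPM per kb) and H2-K1 (7.04 CPM per kb) followed. Tapbp stood at 4.48 CPM per kb and Tap2 at 1.63 CPM per kb. H2-T23, H2-Q4 and Cd74 were close to each other at 1.24, 1.18 and 1.14 CPM per kb, and their ranges over the mice overlapped. Tap1 had 0.465 CPM per kb and H2-Aa 0.246 CPM per kb. The range around these medians was widest for the class II genes: the highest mouse was 58.4 times the median for H2-Aa and 55.1 times for Cd74, against 2.49 times for Tapbp.

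In nearly every member that range came from single mice. In WT-D mice 1 to 4, H2-K1 was at 137, 21.7, 22.5 and 20.7 CPM. In 3xTg-D mice it was at 18.8, 66.7, 14.6 and 18.3 CPM, in WT-S mice at 21.3, 18.9, 24.1 and 20.7 CPM, and in 3xTg-S mice at 35.1, 16.1, 18.1 and 14.3 CPM. Mouse WT-D 1 was thus far above every other mouse, mouse 3xTg-D 2 came next and mouse 3xTg-S 1 after it, while no WT-S mouse stood out. The 4 groups overlapped. H2-D1, the other classical heavy chain, showed the same order, with 125, 22.96, 22.7 and 25.0 CPM in WT-D mice, 25.2, 88.9, 19.0 and 24.9 CPM in 3xTg-D mice, 20.1, 21.1, 30.1 and 22.7 CPM in WT-S mice, and 39.2, 20.6, 24.8 and 17.1 CPM in 3xTg-S. Of the 75-base stretches of these genes, 3.10% (H2-K1) and 5.56% (H2-D1) also occur in other transcripts, so a small part of their reads may be missing from the counts.

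The nonclassical heavy chains were lower per kb of exon, and in WT-D 1 and 3xTg-D 2 they differed more from the rest of the group than the classical ones. H2-T23, whose product Qa-1 is a ligand of inhibitory receptors on NK cells, was at 46.5, 3.03, 3.15 and 2.86 CPM in WT-D mice. Its levels were 3.68, 14.0, 3.56 and 4.96 CPM in 3xTg-D mice, 2.54, 2.18, 3.62 and 2.98 CPM in WT-S mice, and 8.70, 4.34, 3.15 and 4.10 CPM in 3xTg-S. The same 3 mice were highest in their groups. H2-Q4 reached 32.1 CPM in WT-D 1, 11.1 CPM in 3xTg-D 2 and 6.47 CPM in 3xTg-S 1, and lay between 1.38 and 3.96 CPM in the other 13 mice. The exons of H2-Q4 share 19.1% of their length with a gene on the opposite strand and 20.7% of its 75-base stretches with other transcripts, so its values are uncertain.

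Among the genes of assembly and loading, B2m had 298, 90.9, 78.2 and 87.6 CPM in WT-D mice, 88.2, 229, 74.9 and 80.2 CPM in 3xTg-D mice, 80.9, 71.8, 99.2 and 78.0 CPM in WT-S mice, and 146, 83.3, 76.9 and 67.9 CPM in 3xTg-S. These were again the same mice, with a smaller difference than in the heavy chains. Tap1, the transporter's first subunit, was at 26.5 CPM in WT-D 1, 6.21 CPM in 3xTg-D 2 and 6.47 CPM in 3xTg-S 1, and at 2.003 to 3.34 CPM in the other mice. Its partner Tap2 was at 19.1, 8.22 and 7.19 CPM in these 3 mice against 4.83 to 7.03 CPM in the rest. Tapbp was at 40.5, 23.5 and 20.5 CPM against 14.1 to 18.3 CPM. The smallest differences of the set were thus in Tap2 and Tapbp, which also share exon sequence with neighbouring genes (18.6% of 75-base stretches for Tapbp and 8.27% for Tap2).

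The class II genes were low outside WT-D 1 and 3xTg-D 2, and 3xTg-S 1 lay within the range of the other mice. Cd74 was at 106, 1.54, 3.25 and 3.12 CPM in WT-D mice, 1.15, 21.5, 1.11 and 1.31 CPM in 3xTg-D mice, 2.54, 0.518, 1.56 and 2.28 CPM in WT-S mice, and 3.34, 1.38, 5.39 and 0.702 CPM in 3xTg-S. Here mouse 3xTg-S 3 was above 3xTg-S 1, so the third high mouse of the class I genes was not the highest of its group. H2-Aa was at 54.5, 1.15, 2.25 and 1.33 CPM in WT-D and at 0.714, 8.47, 0.371 and 0.436 CPM in 3xTg-D. It was at 1.74, 0.155, 0.642 and 0.597 CPM in WT-S mice, and at 1.24, 0.334, 1.61 and 0.378 CPM in 3xTg-S. Its lowest value rested on 3 reads (WT-S 2) and its highest on 1290 reads (WT-D 1).

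**Figure D1:**
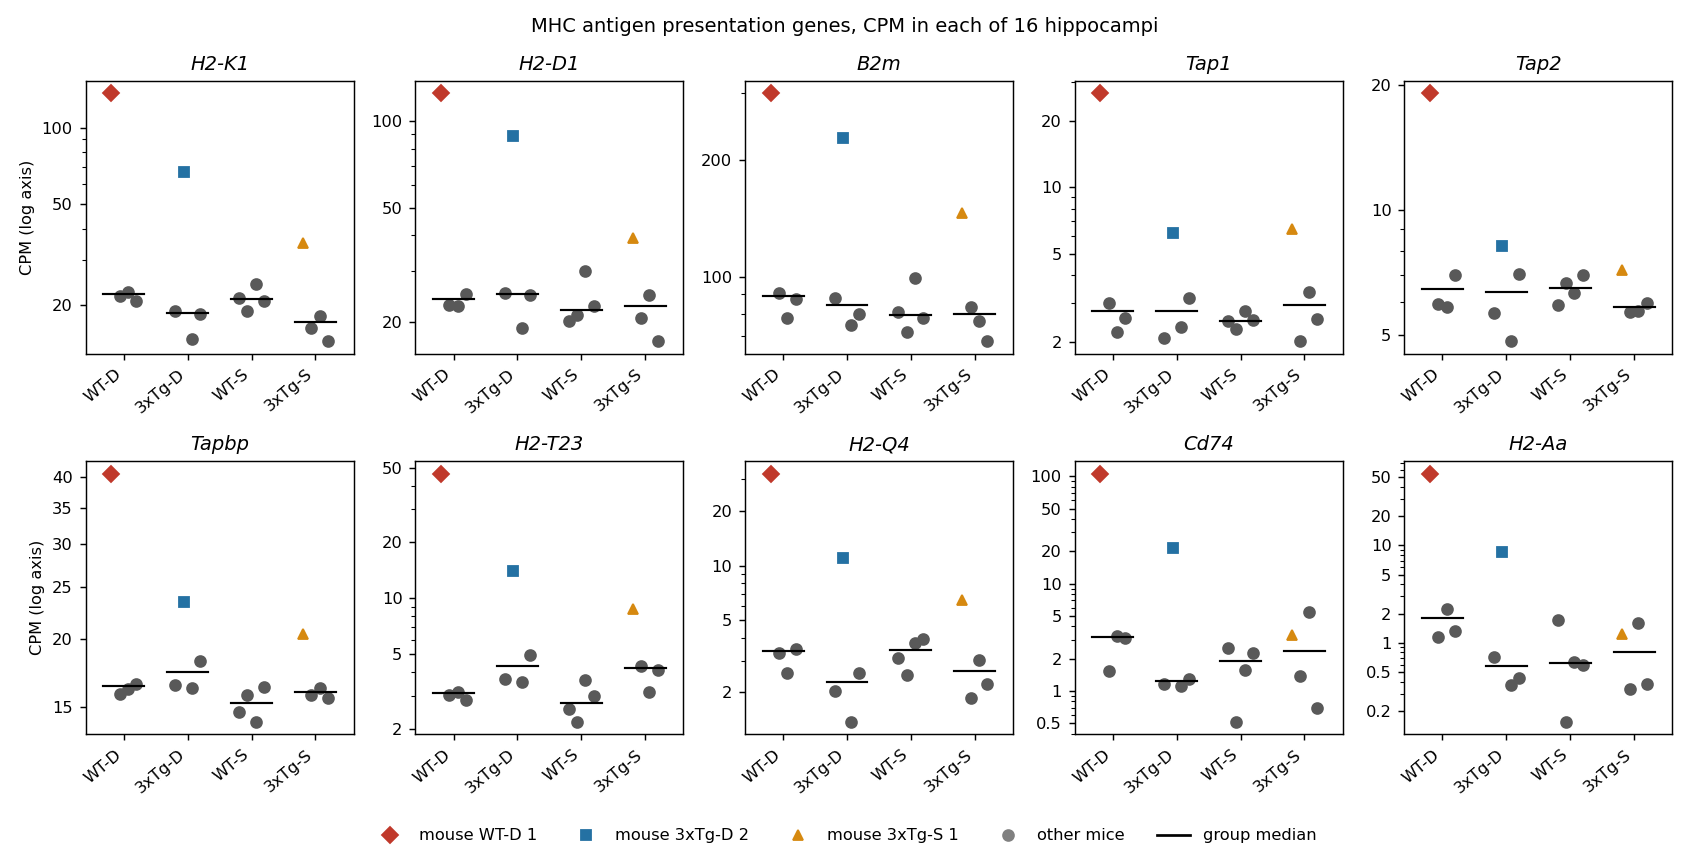
Level of each member in CPM (log axis) in each mouse of the 4 groups, with a line at the group median (4 mice a group) and the 3 highest mice marked. WT-D 1 is the highest of the 16 mice in all 10 panels, at 137 CPM for H2-K1 and 54.5 CPM for H2-Aa, while the other WT-D mice lie among the other groups.

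Counted over members, WT-D 1 was the highest of the 16 mice in 10 of 10, against 5.65% of all tested genes. Mouse 3xTg-D 2 was second in 9 of 10, and 3xTg-S 1 in Tap1. Against the median of the other 3 mice of its group, WT-D 1 was 6.30-fold higher in H2-K1, 5.44-fold in H2-D1, 15.4-fold in H2-T23, 10.4-fold in Tap1, 3.40-fold in B2m, 34.0-fold in Cd74 and 41.0-fold in H2-Aa. Mouse 3xTg-D 2 was 3.64-fold higher in H2-K1, 3.58-fold in H2-D1, 18.6-fold in Cd74 and 19.4-fold in H2-Aa. Mouse 3xTg-S 1 was 2.18-fold higher in H2-K1, 1.90-fold in H2-D1 and B2m, and 2.12-fold in H2-T23. On the log2 CPM scale, the median difference of the 10 members from the rest of the group was 2.94 in WT-D 1, 1.85 in 3xTg-D 2 and 1.09 in 3xTg-S 1, and between -0.41 and 0.22 in the other 13 mice. The median of all tested genes stayed within -0.01 and 0.01 in each of the 16 mice. A difference of 1 or more was found in 2.26% of all tested genes in WT-D 1, in 1.71% in 3xTg-D 2 and in 1.48% in 3xTg-S 1, and in 10, 8 and 6 members.

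**Figure D2:**
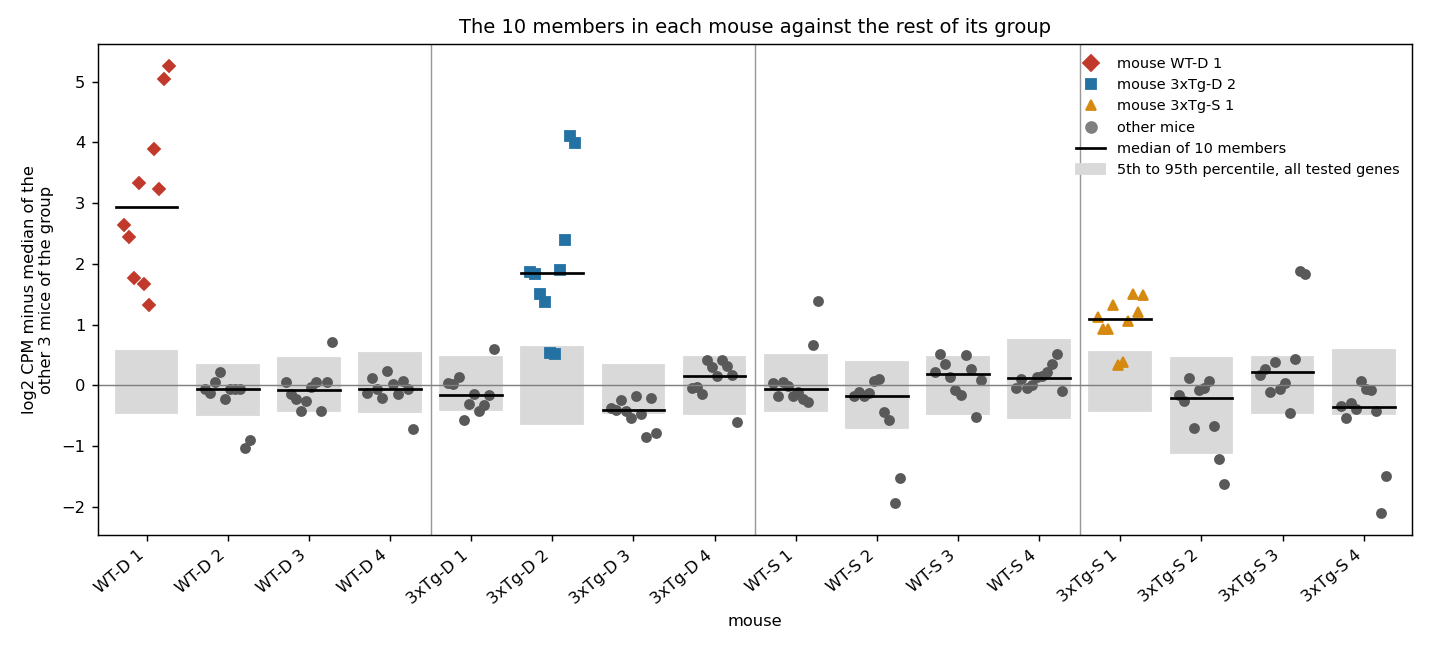
Difference of each member's log2 CPM in a mouse from the median of the other 3 mice of its group, for all 16 mice, with grey bars from the 5th to the 95th percentile of all tested genes and a black line at the median of the 10 members. The members' median is 2.94 in WT-D 1, 1.85 in 3xTg-D 2 and 1.09 in 3xTg-S 1, above the grey bar in each, and the pair of points above the bar in 3xTg-S 3 are Cd74 and H2-Aa.

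The other genes of the pathway were read in the same mice. Psmb8 and Psmb9 encode inducible proteasome subunits that cut peptides for class I. In WT-D 1, Psmb8 was at 28.6 CPM and Psmb9 at 11.9 CPM, in 3xTg-D 2 at 10.1 and 3.52 CPM, and in 3xTg-S 1 at 5.43 and 2.29 CPM, against highest values of 3.79 CPM (Psmb8) and 1.48 CPM (Psmb9) in the other 13 mice. The class I transactivator Nlrc5 was at 11.9, 2.10 and 2.22 CPM in these 3 mice and at no more than 1.17 CPM in the rest. Ciita, the class II transactivator, separated the mice: it was at 4.98 CPM in WT-D 1, but at 0.210 CPM in 3xTg-D 2 and 0.131 CPM in 3xTg-S 1, within the range of the other mice (up to 0.217 CPM). Among the interferon signalling genes, Irf1, a target of type II interferon, was at 25.8 CPM in WT-D 1, 9.02 CPM in 3xTg-D 2 and 6.93 CPM in 3xTg-S 1, with up to 8.53 CPM in the other mice. Stat2 and Irf9, which act in type I interferon signalling, were at 44.9 and 21.1 CPM in 3xTg-S 1, at 44.2 and 17.3 CPM in WT-D 1, and at 31.6 and 19.4 CPM in 3xTg-D 2. In the other mice Stat2 reached 35.6 CPM and Irf9 14.4 CPM, so Stat2 in 3xTg-D 2 lay within their range.

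Markers of immune cells moved with the members in part of these mice. The summed level of 12 microglia genes reached 752 CPM in WT-D 1, and in 3xTg-D 2 it was 922 CPM, both above the 398 to 596 CPM of the other 13 mice, while 3xTg-S 1 (504 CPM) was within that range. By group it ranged from 405 to 752 CPM in WT-D, 486 to 922 CPM in 3xTg-D, 402 to 528 CPM in WT-S and 398 to 596 CPM in 3xTg-S. None of its genes was a DEG in any pairwise comparison, that is, none had an unadjusted value of at most 0.01 in edgeR's quasi-likelihood test (two-sided), the threshold of the study. These comparisons called 0.188% to 5.69% of all tested genes, so for 12 genes a count of none is near the background. In WT-D 1 the complement genes C1qa, C1qb and C1qc were at 60.1, 70.0 and 67.7 CPM (20.1 to 35.8 CPM in the 13 mice) and the protease Ctss at 282 CPM, whereas the resident microglia gene P2ry12 was at 78.7 CPM, within the range of the other 13 mice (54.0 to 84.0 CPM). The monocyte receptor Ccr2 was at 6.46 CPM in WT-D 1 and at 0.183 to 0.755 CPM in the other 15 mice. The list of 7 monocyte and dendritic cell genes, Ccr2 among them, summed to 24.6 CPM in WT-D 1, with 6.46 CPM of it from Ccr2. The sum was 14.3 CPM in 3xTg-D 2 and 18.1 CPM in 3xTg-S 1, with 13.7 to 20.8 CPM in the others. Less Ccr2, the sum in WT-D 1 lay within the range of the others. By group the sum of all 7 ranged from 17.1 to 24.6 CPM in WT-D, 14.3 to 18.0 CPM in 3xTg-D, 13.7 to 19.8 CPM in WT-S and 14.4 to 19.5 CPM in 3xTg-S.

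The 12 T, NK and B cell genes were near 0 throughout but highest in the same 3 mice, with a sum of 4.77 CPM in WT-D 1, 3.06 CPM in 3xTg-D 2 and 2.16 CPM in 3xTg-S 1 against 0.385 to 1.53 CPM in the other mice. All 12 had at least 1 read in WT-D 1, whereas 2 were at 0 in 3xTg-D 2, 3 in 3xTg-S 1 and 3 to 10 in the other mice. The sum ranged from 0.651 to 4.77 CPM in WT-D, 0.385 to 3.06 CPM in 3xTg-D, 0.704 to 1.04 CPM in WT-S and 0.642 to 2.16 CPM in 3xTg-S. Of the remaining lists, astrocyte genes were highest in 3xTg-D 2 (3031 CPM over 5 genes, against 1639 to 2217 CPM in the 13 mice), and red cell genes were highest in 3xTg-S 1 (127 CPM over 5 genes, against 25.8 to 119 CPM in the 13 mice). The border-associated macrophage list was at 17.4, 15.1 and 14.0 CPM in the 3 mice and at 6.43 to 17.7 CPM in the others. The part of these cell types in the levels of the members was not tested.

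**Figure D3:**
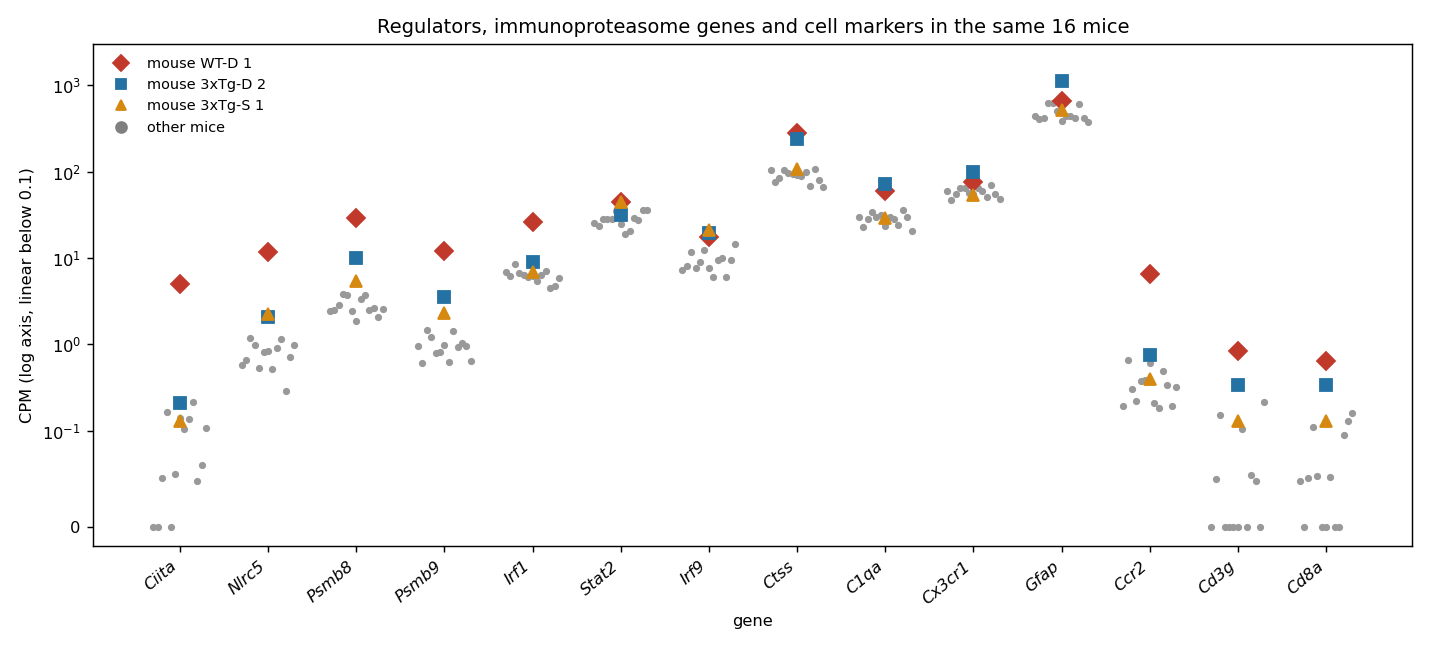
Level in CPM (log axis, linear below 0.1) of regulators, inducible proteasome genes and cell markers, with grey points for 13 mice and 3 marked mice. Ciita is high only in WT-D 1 (4.98 CPM), Stat2 and Irf9 are highest in 3xTg-S 1 (44.9 and 21.1 CPM), and Gfap is highest in 3xTg-D 2.

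The comparison of WT-D with 3xTg-D asks how the members differ by genotype under vehicle. None of the 10 was a DEG by edgeR's quasi-likelihood test, beside 4.91% of all tested genes, and the lowest adjusted p among them was 0.493. All 10 had a negative log2 fold change, with a median of -0.92 beside 0.00 over all genes. H2-K1 had a log2 fold change of -0.76 (SE 0.70, edgeR adjusted p = 0.708) and H2-D1 of -0.30 (SE 0.65, adjusted p = 0.893). H2-T23 was at -1.08 (SE 0.92, adjusted p = 0.681) and H2-Aa at -2.50 (SE 1.34, adjusted p = 0.493). The differences were smaller than the spread between mice, since WT-D 1 and 3xTg-D 2 lay in opposite groups: without WT-D 1 the median of the members became 0.48, and without 3xTg-D 2 it became -1.67. The WT-D mean was 50.4 ± 57.5 CPM for H2-K1 and 28.4 ± 51.6 CPM for Cd74, and the 3xTg-D mean was 29.6 ± 24.8 CPM and 6.26 ± 10.1 CPM (SD, n = 4).

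The comparison of 3xTg-D with 3xTg-S asks what CAY10566 does on the 3xTg background. It gave no DEG among the members, beside 0.904% of all genes. The log2 fold changes were -0.52 for H2-K1 (SE 0.47, edgeR adjusted p = 0.765), -0.65 for H2-D1 (SE 0.46, adjusted p = 0.735), -0.40 for H2-T23 (SE 0.46, adjusted p = 0.811) and -1.59 for H2-Aa (SE 0.99, adjusted p = 0.728, the lowest of the 10). Of the 10 members 9 were negative and Tap1 was not. These directions rested on single mice, since the median of the members, -0.39 with all 8 mice, was 0.28 without 3xTg-D 2 and -0.83 without 3xTg-S 1. All genes had a median of 0.01.

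For the inhibitor on the wild-type background, WT-D vs WT-S gave 1 DEG among the members, beside 0.188% of all genes (0.109% lower). It was H2-Aa, lower in WT-S at a log2 fold change of -4.23 (SE 1.34, edgeR adjusted p = 1.00). All 10 were negative, with a median of -1.46 beside 0.00 over all genes. H2-K1 was at -1.26 (SE 0.58), H2-D1 at -1.07 (SE 0.53) and H2-T23 at -2.31 (SE 0.90), each with an adjusted p of 1.00. Same-numbered mice deviated together in this comparison. With the replicate number as a block 2 members were called, beside 115 of 16475 genes. They were H2-Aa (log2 fold change -3.52, SE 0.60, edgeR adjusted p = 0.681) and Cd74 (-2.96, SE 0.82, adjusted p = 0.920). Without WT-D 1, however, no member was called by the test without the block, H2-Aa was at -0.98 (SE 0.54) and the median of the members was -0.05. The call of H2-Aa was also lost when any single WT-S mouse was left out. The levels of H2-Aa overlapped between the groups, at 1.15 to 54.5 CPM in WT-D and 0.155 to 1.74 CPM in WT-S.

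The genotypes were also compared under CAY10566 (WT-S vs 3xTg-S). No mouse there was as high in any member as WT-D 1, and only in Tap1 was one (3xTg-S 1) above 3xTg-D 2. No member was a DEG, beside 4.26% of all genes. H2-T23 came nearest, at a log2 fold change of 0.82 (SE 0.30, edgeR adjusted p = 0.321), with 2.18 to 3.62 CPM in WT-S and 3.15 to 8.70 CPM in 3xTg-S. H2-K1 was at -0.04 (SE 0.24), H2-D1 at 0.09 (SE 0.23) and H2-Aa at 0.10 (SE 0.66), with adjusted p of 0.963, 0.909 and 0.966. The median of the members was 0.12, beside 0.00 over all genes. Without 3xTg-S 1 the test called H2-K1 (-0.41), beside 582 of 16475 genes, and without 3xTg-S 3 it called H2-T23 (0.99), beside 520.

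Between WT-D and 3xTg-S, which differ in genotype and treatment at once, no member was a DEG, beside 5.69% of all genes, and this comparison shares its WT-D mice with 2 of the others. H2-Aa was at a log2 fold change of -4.16 (SE 1.37, edgeR adjusted p = 0.194), H2-K1 at -1.31 (SE 0.63, adjusted p = 0.418), H2-D1 at -0.98 (SE 0.56, adjusted p = 0.506) and H2-T23 at -1.498 (SE 0.90, adjusted p = 0.530). H2-Aa was called without WT-D 2, WT-D 3 or WT-D 4 (-4.51 to -4.54), beside 731, 751 and 792 of 16475 genes. It was at -0.89 and not called without WT-D 1. The genotype by treatment interaction over the 16 mice called no member either, beside 0.595% of all genes, with a lowest edgeR adjusted p of 0.788. The median of the members was -1.31 in WT-D vs 3xTg-S (0.07 without WT-D 1) and 1.00 for the interaction (-0.39 without WT-D 1).

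**Figure D4:**
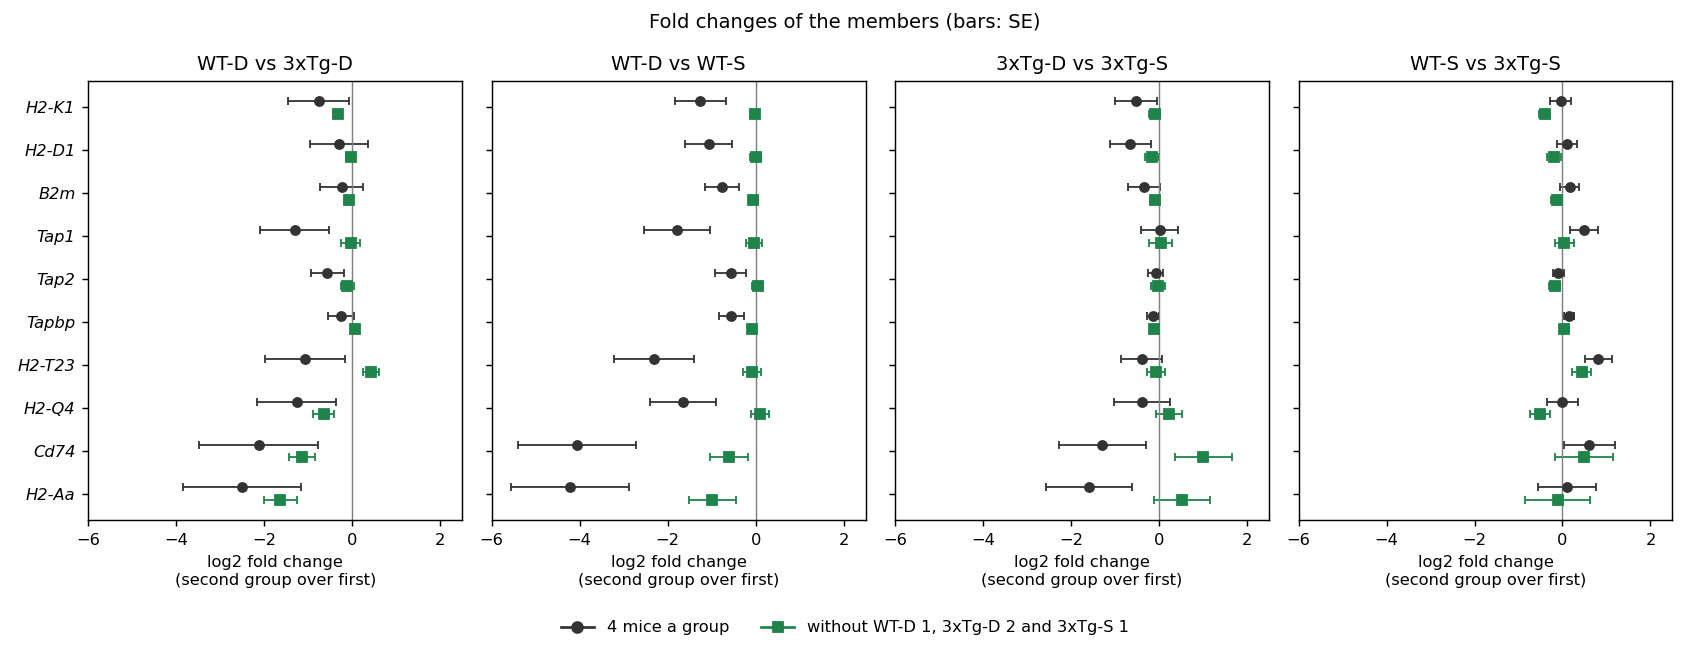
Log2 fold change (second group over first) of the 10 members in 4 comparisons, with bars of 1 SE, for all mice (black) and without WT-D 1, 3xTg-D 2 and 3xTg-S 1 (green). In WT-D vs WT-S, H2-Aa moves from -4.23 to -0.98 and H2-K1 from -1.26 to -0.02 when the 3 mice are left out.

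Every comparison was refitted without the 3 mice. They were picked for their levels of these very genes, after the values were seen, so the results describe the other 13 mice and are no independent test. In WT-D vs WT-S no member was then called (median -0.05), and in 3xTg-D vs 3xTg-S none was (median -0.05), beside 0.176% and 0.643% of all genes. The interaction called none either, beside 0.407%. Under vehicle 3 members were DEGs and lower in the 3xTg-D mice, beside 5% of all genes (2.83% lower): H2-K1 (log2 fold change -0.33, SE 0.10, edgeR adjusted p = 0.155), Cd74 (-1.14, SE 0.30, adjusted p = 0.0906) and H2-Aa (-1.63, SE 0.37, adjusted p = 0.0519). H2-K1 was also lower in 3xTg-S, at -0.44 against WT-D (SE 0.11, edgeR adjusted p = 0.160) and -0.41 against WT-S (SE 0.12, adjusted p = 0.228), as the only member called there, beside 3.7% and 3.53% of all genes (2.47% and 2.11% lower). In the vehicle fit without these mice, markers of other cell types were called too. Of the border-associated macrophage genes 1 of 4 tested was lower (Mrc1, log2 fold change -0.87, SE 0.18, edgeR adjusted p = 0.0331), as were 3 of 7 meningeal fibroblast genes, 2 of 6 choroid plexus genes and 2 of 7 neuron genes, while 2 of 12 microglia genes, 1 of 5 astrocyte genes and 3 of 5 oligodendrocyte genes were higher. The list medians were -0.63 for border-associated macrophages, -0.99 for meningeal fibroblasts, -2.15 for choroid plexus and 0.25 for microglia, beside -0.00 over all genes, and their part in the lower Cd74 and H2-Aa was not tested. In the mice that were left, the levels of H2-K1 nearly touched, with 18.91 to 24.1 CPM in 7 WT mice and 14.3 to 18.85 CPM in 6 3xTg mice. With the 3 mice included they overlapped. The share of all genes without overlap in these 13 mice was not computed. H2-D1 overlapped widely, at 20.1 to 30.1 CPM in WT and 17.1 to 25.2 CPM in 3xTg mice. H2-T23 leaned the other way, at 2.18 to 3.62 CPM in WT and 3.15 to 4.96 CPM in 3xTg mice, and its log2 fold change in WT-D vs 3xTg-D was 0.43 (SE 0.18, adjusted p = 0.382).

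The wider pathway was read through 4 lists. Of 24 class I and class I-like heavy chain genes, 15 were tested. With all mice, WT-D vs 3xTg-D called 1 lower and 0 higher, WT-D vs 3xTg-S called 3 lower and 0 higher, WT-S vs 3xTg-S called 4 lower and 1 higher, and the treatment comparisons within a genotype called 0. These counts stand beside 4.91%, 5.69% and 4.26% of all genes, against which 1 of 15 is near the background. Without the 3 mice the same comparisons called 4 lower, 6 lower, and 7 lower and 1 higher, beside 5%, 3.7% and 3.53% of all genes. The median log2 fold changes of the list were -0.69, -0.98 and -0.42 in the 3 genotype comparisons and, for treatment, -0.44 in the 3xTg-D and -0.70 in the WT-D comparison, beside -0.00 to 0.01 over all genes. Hfe, which encodes an iron-regulating class I-like protein, was lower in all 3 genotype comparisons, at -0.69 (WT-D vs 3xTg-D, SE 0.16, edgeR adjusted p = 0.0688), -0.96 (WT-D vs 3xTg-S, SE 0.16, adjusted p = 0.0169) and -0.83 (WT-S vs 3xTg-S, SE 0.18, adjusted p = 0.0577). These calls held with any single mouse left out. Its levels were 4.75 to 5.87 CPM in WT-D, 2.45 to 4.03 CPM in 3xTg-D, 3.80 to 5.55 CPM in WT-S and 2.21 to 3.34 CPM in 3xTg-S. Mr1, which presents vitamin B metabolites, and Fcgrt, the neonatal Fc receptor, were lower in 3xTg-S than in WT-D (-0.58, adjusted p = 0.0471, and -0.57, adjusted p = 0.0191) and than in WT-S (-0.59, adjusted p = 0.135, and -0.42, adjusted p = 0.146). Mr1 was highest of the 16 mice in WT-S 1 (11.03 CPM, against 7.54 to 7.84 CPM in the other WT-S mice), and its call in WT-S vs 3xTg-S was lost without that mouse (-0.44).

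A pair of T-region genes, H2-T22 and H2-T24, went in opposite directions between WT-S and 3xTg-S. H2-T22 was higher in 3xTg-S, at 15.3, 11.7, 8.35 and 11.2 CPM against 6.20, 5.23, 6.14 and 6.89 CPM in WT-S (log2 fold change 0.91, SE 0.17, edgeR adjusted p = 0.0271). H2-T24 was lower, at 3.40, 1.62, 1.93 and 1.24 CPM against 3.15, 3.63, 4.54 and 3.80 CPM (log2 fold change -0.91, SE 0.28, edgeR adjusted p = 0.195). H2-T22 did not overlap between these groups and kept its call with any mouse left out, whereas H2-T24 overlapped through 3xTg-S 1 and lost its call without any one of 6 mice. The share of all genes without overlap between these groups was not computed. Without the 3 mice, H2-Q6 was lower in 3xTg mice in all 3 genotype comparisons (-1.43, -1.92 and -1.45, adjusted p = 0.0187, 0.0275 and 0.164), with 0.881 to 2.01 CPM in 7 WT and 0.382 to 0.824 CPM in 6 3xTg mice. Here too, the share of all genes without overlap was not computed. Reads that map to several places were counted apart from the genes, at 11.7% to 15.4% of reads. Sequence shared between related genes can thus lower a count, and such sharing was computed only for the members. The genotypes come from different stocks, so a sequence difference between strains and a difference in level cannot be told apart in these counts.

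None of the 15 class I loading genes was called in any pairwise comparison, beside 0.188% to 5.69% of all genes. For 15 genes a count of none is near these shares. The medians were -0.23 (WT-D vs 3xTg-D), -0.42 (WT-D vs 3xTg-S), -0.09 (3xTg-D vs 3xTg-S), -0.38 (WT-D vs WT-S) and 0.12 (WT-S vs 3xTg-S). The class II list had 12 of 15 genes tested, and with all mice its calls were all in WT-D vs WT-S, beside 0.188% of all genes: H2-Aa and the beta chain gene H2-Ab1 (log2 fold change -4.56, SE 1.43, edgeR adjusted p = 1.00), 2 lower and 0 higher. H2-Ab1 was at 39.2 CPM in WT-D 1 and at 0.159 to 4.53 CPM in the other mice, and without WT-D 1 its log2 fold change was -0.91. Without the 3 mice the list had 0 calls in WT-D vs WT-S and 4 lower in WT-D vs 3xTg-D, beside 5% of all genes: Cd74, H2-Aa, H2-Ab1 (-1.53, SE 0.40, edgeR adjusted p = 0.0906) and the beta chain gene H2-Eb1 (-1.51, SE 0.30, adjusted p = 0.0272). Of 19 regulators 18 were tested, and 1 was called in WT-D vs 3xTg-S as well as 1 in WT-S vs 3xTg-S, which is near the 5.69% and 4.26% of all genes. The interferon receptor chain Ifnar1 was lower in 3xTg-S than in WT-D (-0.19, SE 0.06, edgeR adjusted p = 0.129), Stat2 was higher in 3xTg-S than in WT-S (0.61, SE 0.16, adjusted p = 0.122), and the remaining pairwise comparisons held no call. Stat2 ranged from 19.1 to 28.9 CPM in WT-S and from 27.6 to 44.9 CPM in 3xTg-S.

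The MHC stretch of chromosome 17 from the first to the last H2 gene (chr17:33974659-37483552, GRCm38) held 103 tested genes, 19 of them H2 genes. Tapbp lies just before this stretch and is not counted in it. In WT-D vs 3xTg-D 1 gene of the stretch was called (0.971%, beside 4.91% of all genes), and it was no H2 gene. In WT-D vs 3xTg-S 6 were called (5.83%, beside 5.69%), none of them an H2 gene. In WT-S vs 3xTg-S 5 were called (4.85%, beside 4.26%), 2 of them the H2 genes above. In WT-D vs WT-S the 2 called genes (1.94%, beside 0.188%) were H2-Ab1 and H2-Aa. Without the 3 mice, 7 genes of the stretch were called in WT-D vs 3xTg-D (6.8%, beside 5%), 5 in WT-D vs 3xTg-S (4.85%, beside 3.7%) and 8 in WT-S vs 3xTg-S (7.77%, beside 3.53%). Of the 19 H2 genes these were 5 lower (26.3%; H2-Q6, H2-Eb1, H2-Aa, H2-Ab1 and H2-K1), 3 lower (15.8%; H2-Q6, H2-K1 and H2-T24), and 4 lower with 1 higher (26.3%; H2-T24, H2-Q6, H2-T10 and H2-K1, and H2-T22).

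Likeness between genes was described by Pearson's r of log2 CPM after removal of each group's mean, over the 16 mice, and it rests largely on the 3 high mice. The 5 genes most like H2-K1 were H2-D1 (r = 0.989), B2m (0.986), H2-Q4 (0.981), the interferon-induced GTPase Irgm2 (0.967) and the Fc receptor Fcgr1 (0.962). Those most like H2-D1 were H2-K1, B2m (0.983), H2-Q4 (0.979), Irgm2 (0.958) and Iigp1 (0.952), and those most like B2m were H2-K1, H2-D1, Fcgr1 (0.974), Gbp3 (0.969) and H2-Q4 (0.966). For Cd74 they were the class II genes H2-Eb1 (0.975), H2-Ab1 (0.973) and H2-Aa (0.973), then Tagln2 (0.925) and H2-K1 (0.915). In the other 13 mice, r was 0.856 between H2-K1 and H2-D1, 0.694 between H2-K1 and B2m, 0.220 between H2-K1 and Fcgr1 and 0.871 between Cd74 and H2-Eb1. Over the 45 pairs of members, r had a median of 0.916 in the 16 mice and of 0.342 in the 13 mice, where it ranged from -0.438 to 0.856.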

How the data were processed

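Whole-hippocampus RNA was sequenced in 16 mice. The authors trimmed reads with Trimmomatic 0.35, aligned them with STAR 2.5.1b to GRCm38 and deposited raw counts of reads for each gene, not normalized. The strand setting of the counting is not given in the sources used here, so genes that overlap others are uncertain. Nothing says whether mice of a group shared litters, so p-values measure the spread between these mice.

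The 10 members and the gene lists were chosen with earlier results of these data known. Other genes of the lists were named where they were DEGs in any comparison (H2-Q6 in the fits without 3 mice), and further genes were named as regulators or cell markers after their values were seen. Genes were filtered with edgeR 4.0.16 (filterByExpr, minimum count 10, minimum total 15) in R 4.3.3, scaled by TMM and compared pairwise by edgeR's quasi-likelihood test on all tested genes. DEGs had an unadjusted value of at most 0.01, the study's threshold, and Benjamini-Hochberg adjusted p-values are over all tested genes. Log2 CPM used a prior count of 2. Exon lengths, and overlaps by 75-base stretches, came from Gencode M21 (same build).

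Replicate numbers 1 to 4 in the labels were checked as pairs: the deviations of same-numbered mice from their group means correlated at over 0.1 in every pair only in WT-D vs WT-S (lowest 0.114). Alternatives were other size factors, DESeq2 1.42.0, other filters, all mice in 1 fit, the replicate block, covariates (reads outside genes, choroid plexus score), each mouse left out and, chosen after seeing the data, the 3 highest mice left out together. The fits were tested on simulated counts. Promoter windows are RefSeq's (GRCm38.p6). Some items are not reported here.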

Additional observations from a re-analysis of the deposited data

Results flagged for a closer look

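Dixon's 95% criterion for groups of 4 compares the gap to the nearest mouse with the whole range of the group. By it, 18 of 40 combinations of member and group held a mouse far from the others. Chance gives about 1 in 20 groups where values are normally distributed, which CPM need not be. The share of such groups over all tested genes was not computed. The members moved together across mice, and all 18 came from 3 mice.

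WT-D 1 stood apart in all 10 members: H2-K1 at 137 CPM, H2-D1 at 125 CPM, B2m at 298 CPM, Tap1 at 26.5 CPM, Tap2 at 19.1 CPM, Tapbp at 40.5 CPM, H2-T23 at 46.5 CPM, H2-Q4 at 32.1 CPM, Cd74 at 106 CPM and H2-Aa at 54.5 CPM. Mouse 3xTg-D 2 stood apart in 7: H2-K1 at 66.7 CPM, H2-D1 at 88.9 CPM, B2m at 229 CPM, H2-T23 at 14.0 CPM, H2-Q4 at 11.1 CPM, Cd74 at 21.5 CPM and H2-Aa at 8.47 CPM. Mouse 3xTg-S 1 stood apart in Tapbp, at 20.5 CPM. No mouse of WT-S was far from its group in any member. The 3 libraries were not of one depth, with 23309273, 23590149 and 15413385 reads on genes, and the share of reads outside genes was 10.6%, 8.79% and 12.8%, within the 7.82% to 15.1% of all mice.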

How the results depend on the processing

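The number of members called was 0 in every pairwise comparison but WT-D vs WT-S, where it was 1. Of the alternatives other than leaving out 1 mouse, 17 moved the number and 36 did not. The genes called among all tested genes are given in brackets. In WT-D vs 3xTg-D the number was 3 with reads outside genes as a covariate (748 of 16475) and 3 without the 3 highest mice (823 of 16475). In WT-D vs 3xTg-S it was 3 with no filter on low counts (1261 of 33942) and 1 with all 16 mice in one fit (1005 of 16475). There it was also 2 with the replicate block (1075 of 16475), 2 with the choroid plexus covariate (629) and 1 without the 3 highest mice (610). In WT-D vs WT-S it was 0 with DESeq2 (43 of 16421) and with at least 10 counts in every mouse (20 of 14293). It was also 0 with the choroid plexus covariate (28 of 16475) and without the 3 highest mice (29 of 16475). It was 6 with no filter (180 of 33942). It was 2 with all mice in one fit (48 of 16475), with the replicate block (115) and with reads outside genes as a covariate (49). In WT-S vs 3xTg-S it was 1 with no filter (1077 of 33942) and 1 without the 3 highest mice (582 of 16475). The cause was not tested, except that DESeq2 gave no p-value for 7 of the 10 members in 4 of 6 comparisons, because single counts were extreme, and that the filter of at least 10 counts in every mouse removed H2-Aa itself (3 reads in WT-S 2). With 1 mouse left out at a time, the number called was 0 to 1 in WT-D vs 3xTg-S, 0 to 2 in WT-D vs WT-S and 0 to 1 in WT-S vs 3xTg-S. Of the 16475 genes, 664 to 1545, 22 to 516 and 516 to 993 were called in these fits.

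Without the 3 highest mice the log2 fold change changed sign for H2-T23 in WT-D vs 3xTg-D (0.43) and WT-D vs 3xTg-S (0.35). It also did so for H2-Aa in 3xTg-D vs 3xTg-S (0.53) and WT-S vs 3xTg-S (-0.11), and for H2-D1 in WT-D vs WT-S (0.00039) and WT-S vs 3xTg-S (-0.19). Of the other members, it changed sign for Cd74 (1.01) and H2-Q4 (0.23) in 3xTg-D vs 3xTg-S and for Tapbp in WT-D vs 3xTg-D (0.066). It did so too for Tap2 (0.049) and H2-Q4 (0.097) in WT-D vs WT-S and for B2m in WT-S vs 3xTg-S (-0.13). In WT-S vs 3xTg-S it also changed sign for H2-K1 with the choroid plexus covariate (0.026) and for H2-Aa with reads outside genes as a covariate (-0.064). With 1 mouse left out at a time in WT-D vs 3xTg-D, H2-K1 ranged from -1.56 to 0.47, H2-D1 from -1.10 to 0.76, H2-T23 from -1.79 to 1.14 and H2-Aa from -4.88 to 0.73. In 3xTg-D vs 3xTg-S, H2-K1 ranged from -0.88 to 0.26, H2-D1 from -0.94 to 0.12, H2-T23 from -0.77 to 0.30 and H2-Aa from -2.05 to 0.74. In WT-S vs 3xTg-S, H2-K1 ranged from -0.41 to 0.10, H2-D1 from -0.19 to 0.24 and H2-Aa from -0.35 to 0.86. In WT-D vs 3xTg-S, H2-D1 ranged from -1.26 to 0.090 and H2-T23 from -1.87 to 0.73, and in WT-D vs WT-S H2-D1 ranged from -1.30 to 0.00039.

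Same-numbered mice of WT-D and WT-S correlated in every pair, so the block is given beside that comparison. In the other comparisons at least 1 pair correlated at 0.1 or less. The mean correlation of same-numbered mice was 0.241 between WT-S and 3xTg-S, 0.213 between the 3xTg groups and 0.176 between WT-D and 3xTg-S. It was 0.041 between the vehicle groups and 0.217 between the WT groups. With the block, 1339 genes were called between WT-S and 3xTg-S (702 without it) and 1133 between the 3xTg groups (149 without it). No member was among them. Whether same-numbered mice shared more than a number was not tested. Other calls were lost with single mice left out: Ifnar1 without WT-D 1, WT-D 2, WT-D 4, 3xTg-S 1 or 3xTg-S 4, H2-Ab1 without WT-D 1 or any WT-S mouse, and, in WT-S vs 3xTg-S, Mr1 without WT-S 1, 3xTg-S 3 or 3xTg-S 4, Fcgrt without WT-S 1, WT-S 3, 3xTg-S 2 or 3xTg-S 4, Stat2 without WT-S 2, WT-S 3 or 3xTg-S 1, and H2-T24 without any one of mice 2, 3 and 4 of either group. H2-Aa rested on few reads outside WT-D 1 and 3xTg-D 2, which limits its fold changes.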
